A study of Mus musculus with 26 samples.

Results

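The WNT4 and RSPO1 branch of canonical WNT signalling was followed in fetal mouse gonads through 10 genes: the ligand Wnt4, the agonist Rspo1, the R-spondin receptor Lgr5, the ubiquitin ligases Znrf3 and Rnf43, the feedback inhibitors Axin2 and Nkd1, the transcription factors Lef1 and Sp5, and Ctnnb1, which encodes β-catenin. They were chosen by name, as ligand, agonist, receptor, regulators, transducer and widely used readouts of the pathway, and matched by Ensembl gene ID and symbol. All 10 were found among the 57186 genes counted in the table of the Fgf9 deletions and among the 31053 genes of the Meis1 table, and all 10 passed the filter on low counts in both. The series holds 26 poly(A) RNA-seq libraries of gonads labelled XY, each taken at E13.5 and separated from the mesonephros, in 6 groups. These are 3 wild-type (WT) libraries, 3 with the deletion called Fgf9 Δ306, 6 with Fgf9 Δ225, 4 with Fgf9 Δ104, 6 with Fgf9 Δ93 and 4 Meis1 knockouts (Meis1 KO). The labels name the Fgf9 deletions only by these numbers and do not give their bounds, their zygosity, the strain, the Meis1 allele or any Cre driver, and they do not say how many gonads were pooled or which libraries share a litter. Replicates of Δ225, Δ104, Δ93 and Meis1 KO are labelled biological, while those of WT and Δ306 carry only a number, so p-values that involve WT or Δ306 measure the spread between libraries, which may be technical in part. The same 3 WT libraries serve as the control of all 5 mutant groups, so these comparisons are not independent of each other.

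In canonical WNT signalling a WNT ligand bound to Frizzled and LRP receptors stops the destruction complex from degrading β-catenin, which then enters the nucleus and activates genes together with TCF and LEF factors. R-spondins bind LGR receptors and withdraw ZNRF3 and RNF43, membrane ubiquitin ligases that remove Frizzled receptors, and so raise the response of a cell to WNT. In the fetal mouse gonad Wnt4 and Rspo1 are known as genes of ovarian fate whose activity opposes the testis pathway of Sry, Sox9 and Fgf9. Axin2, Nkd1, Znrf3, Rnf43, Lgr5, Lef1 and Sp5 are known from many tissues as targets of the pathway as well as parts of it, so their RNA is commonly read as its output.

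Libraries of the table of all deletions held 11582619 to 53392393 counted reads, and the libraries counted with Meis1 KO held 35468633 to 51732897. Levels are given as CPM, the usual library-size-scaled read counts, further scaled by the trimmed mean of M-values, which corrects for RNA composition. Fgf9 stood at 9.85, 9.21 and 9.55 CPM in WT, at 2.94, 2.17 and 2.33 in Δ306, at 2.72, 5.16, 6.98 and 4.52 in Δ104 (replicates 1 to 4), at 2.30, 2.85 and 4.75 (lowest, median, highest) in Δ93, and at 3.69, 5.43 and 16.5 in Δ225. Fgf9 was lower than in WT in every library of Δ306, Δ104 and Δ93, and replicate 3 of Δ225 was above WT. Meis1 was at 0.201, 0.695, 0.364 and 0.494 CPM in the knockouts against 62.1 to 109 in WT. The summed level of the Y-linked genes Ddx3y, Uty, Eif2s3y and Kdm5d, looked at after their values had been seen, was 31.2 to 77.2 CPM in WT but under 1 CPM in 4 libraries labelled XY: Δ306 replicate 3, Δ93 replicates 4 and 5, and Δ225 replicate 4. The sum was lower than in WT beyond these libraries too, at up to 11.7 CPM in Δ306, 6.60 in Δ93, 20.5 in Δ225 and 15.8 in Meis1 KO, while in Δ104 it reached 36.2. Counts of genes are also given without the 4 libraries, and the part of the Y-linked difference in the results was not tested otherwise. WT replicate 1 also stood apart, with 7.06 CPM of the duct marker Pax2 against 0.777 and 1.45 in the other WT libraries, and with a summed level of 5 germ-cell markers of 13.9 CPM against 482 and 720.2.

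Per kilobase of annotated exon, the only scale on which different genes were compared, Ctnnb1 was the most abundant of the 10 in WT at 174 ± 4.45 CPM per kb (SD, n = 3). Wnt4 followed at 11.3 ± 5.03, Nkd1 at 10.1 ± 4.62, Rspo1 at 8.78 ± 1.08 and Axin2 at 6.35 ± 0.41 CPM per kb. Neighbours in the order from Wnt4 to Rspo1 lay within their spread of each other. Znrf3 stood at 3.68 ± 0.12, and Lgr5, Sp5 and Lef1 lay together between 1.92 and 2.17. Rnf43 was the least abundant at 0.56 ± 0.32 CPM per kb. In Δ93 the order from the top was Ctnnb1, Wnt4, Rspo1, Sp5, Nkd1, Axin2, Lgr5, Znrf3, Lef1 and Rnf43, with Sp5 at 22.9 ± 5.09 CPM per kb (SD, n = 6) against 2.08 ± 0.60 in WT.

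The positions given below are those of GENCODE M21 on GRCm38, the same build as the mm10 named in the submitters' processing notes. Of the 8 members with a promoter entry in RefSeq (GRCm38.p6; 13 start sites), the 250 bases before each start were searched on both strands for CTTTG followed by AA, AT, TA or TT, the core that TCF and LEF factors are known to prefer. It was present in 4874 of 32851 windows of that length over all genes (14.8%), and in 2 of the 13 windows of the members. CTTTGAT alone, which is one of these 4 words, was in 3.21% of all windows and in 1 of 13. The following windows are shown because Sp5 changed most among the 10 genes, because Lef1 had the other match, and because Axin2 is the readout most often used for this pathway. All 3 are on the plus strand and written 5′ to 3′ up to the base before the start. Sp5 is at chr2:70474673-70474922, the Lef1 window at chr3:131156044-131156293 (a start inside the gene) and Axin2 at chr11:108920099-108920348, with matches to the 4 words on either strand in capitals.
Sp5: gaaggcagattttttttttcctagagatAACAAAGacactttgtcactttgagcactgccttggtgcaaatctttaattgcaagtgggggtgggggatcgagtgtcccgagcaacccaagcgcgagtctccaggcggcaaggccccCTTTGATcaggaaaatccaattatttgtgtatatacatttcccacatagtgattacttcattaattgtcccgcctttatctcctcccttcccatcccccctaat
Lef1: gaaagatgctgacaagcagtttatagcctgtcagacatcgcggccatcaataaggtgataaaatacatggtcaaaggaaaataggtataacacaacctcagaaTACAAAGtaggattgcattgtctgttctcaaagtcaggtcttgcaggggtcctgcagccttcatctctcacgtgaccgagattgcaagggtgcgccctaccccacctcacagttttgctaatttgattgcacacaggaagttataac
Axin2: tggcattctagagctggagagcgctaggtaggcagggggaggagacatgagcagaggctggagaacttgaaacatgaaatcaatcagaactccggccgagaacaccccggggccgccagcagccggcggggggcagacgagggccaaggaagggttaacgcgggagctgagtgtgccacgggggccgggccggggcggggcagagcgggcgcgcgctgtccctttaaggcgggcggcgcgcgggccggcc
Sp5 holds 1 match on each strand, CTTTGAT on the printed strand and CTTTGTT on the other, and Lef1 holds CTTTGTA on the other strand. A match is only a run of letters, and the windows of Axin2, Wnt4, Rspo1, Nkd1, Ctnnb1 and Rnf43 hold none of these 4 words.

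In Δ93, where Fgf9 was lower than in WT, 8 of the 10 genes were higher. Wnt4, Rspo1, Lgr5, Rnf43, Axin2, Nkd1, Lef1 and Sp5 were higher in Δ93 than in WT (edgeR quasi-likelihood test, adjusted p under 0.05 over all 22941 genes tested), while Znrf3 and Ctnnb1 did not pass. Over all genes 14.1% were called in this comparison and 7.23% were called higher. The median log2 fold change of the 10 genes was 1.52, beside 0.06 over all genes. In Δ306 4 of the 10 were higher than WT, Wnt4, Rspo1, Rnf43 and Sp5, where 6.43% of all genes were called and 2.96% higher. The median of the 10 was 1.04, beside 0.08. In whole gonads, a change in the number of cells of a type and a change in RNA per cell cannot be told apart.

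**Figure D1:**
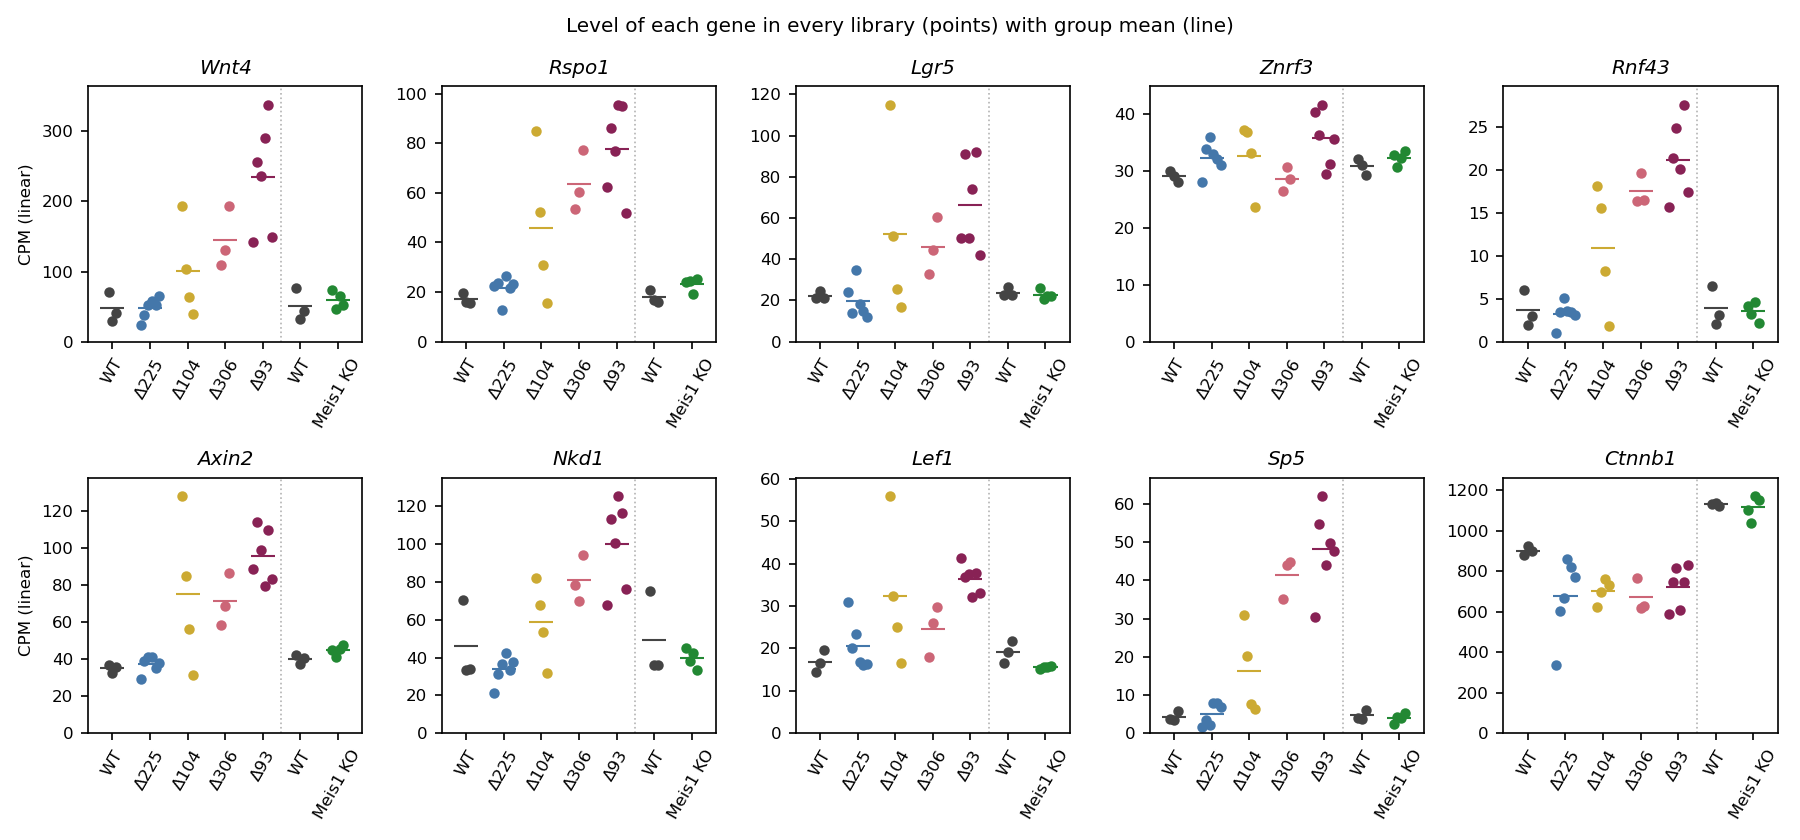
CPM of each of the 10 genes (linear axis from 0, a scale of its own per gene) in every library of WT, the 4 Fgf9 deletions and, right of the dotted line, WT and Meis1 KO of the separate Meis1 table; points are libraries and lines group means. In Δ93 Wnt4 lay between 142 and 338 CPM against 30.0 to 70.9 in WT, the 4 Δ104 libraries were spread out, and Znrf3 (29.6 to 41.6 CPM in Δ93 against 28.1 to 30.0 in WT) and Ctnnb1 did not pass the test.

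Wnt4 (ENSMUSG00000036856, chr4:137277489-137299726, plus strand) encodes the WNT ligand of the early ovary. It measured 70.9, 30.0 and 41.4 CPM in WT, 109.8, 131 and 193 in Δ306, and 142, 247 and 338 (lowest, median, highest) in Δ93. All libraries of Δ306 and Δ93 were above all of WT, and WT replicate 1 was the highest of its group. Here and for the genes below, the share of all genes with libraries separated from WT in this way was not counted. In Δ104 it was 194, 103, 64.0 and 39.7 CPM in replicates 1 to 4, from above all WT libraries to within their range, and in Δ225 it was 23.6, 52.0 and 64.7, overlapping WT. The log2 fold change against WT was 2.31 (SE 0.45, adjusted p = 0.00261) in Δ93 and 1.61 (SE 0.47, adjusted p = 0.0457) in Δ306. It was 1.08 (SE 0.44, adjusted p = 0.263) in Δ104 and 0.03 (SE 0.40, adjusted p = 0.976) in Δ225. Wnt4 was no longer called in Δ306 whichever single library of Δ306 or WT was left out (adjusted p from 0.0591 to 0.223). Leaving out the filter on low counts also lost this call (adjusted p = 0.057).

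Rspo1 (ENSMUSG00000028871, chr4:124986430-125009099, plus strand) encodes the secreted agonist that acts through LGR receptors. It lay at 19.4, 15.9 and 15.7 CPM in WT and at 53.4, 60.3 and 77.1 in Δ306, with 51.7, 81.4 and 95.4 in Δ93. The 2 mutant groups and WT did not overlap, and the WT libraries were close to each other. Δ104 gave 85.1, 52.2, 30.9 and 15.6 CPM, and replicate 4 alone fell below all WT libraries. Δ225 gave 13.0, 22.8 and 26.5 CPM, with 5 of its 6 libraries above WT and replicate 3 below it. The log2 fold change was 2.19 (SE 0.37, adjusted p = 0.00119) in Δ93, 1.90 (SE 0.40, adjusted p = 0.00966) in Δ306, 1.43 (SE 0.38, adjusted p = 0.105) in Δ104 and 0.35 (SE 0.34, adjusted p = 0.603) in Δ225. An antisense gene, Gm12930, overlaps its first bases on the other strand. The library kit keeps strand, but whether strand was used in the counting is not given in the sources used here, which also applies to the overlapping genes of Lgr5, Rnf43, Axin2, Lef1 and Ctnnb1.

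Lgr5 (ENSMUSG00000020140, chr10:115450311-115587780, minus strand) encodes an R-spondin receptor and overlaps A930009A15Rik on the other strand. WT libraries held 21.0, 24.4 and 21.3 CPM, those of Δ306 32.8, 44.6 and 60.4, and those of Δ93 41.9, 62.2 and 92.0. Both mutant groups lay above WT without overlap, but with a wide spread of their own. The highest single value, 115 CPM, was in Δ104 replicate 1, whose other replicates had 51.4, 25.8 and 17.0. In Δ225 Lgr5 stood at 12.2, 16.6 and 35.0 CPM, on both sides of WT. The rise was called in Δ93 (log2 fold change 1.58, SE 0.47, adjusted p = 0.0288) and not in Δ306 (1.05, SE 0.51, adjusted p = 0.234), Δ104 (1.23, SE 0.49, adjusted p = 0.249) or Δ225 (−0.17, SE 0.44, adjusted p = 0.858).

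The 2 membrane ubiquitin ligases, close relatives with the same known role, did not give the same calls. Rnf43 (ENSMUSG00000034177, chr11:87662722-87735539, plus strand) measured 6.00, 1.98 and 2.98 CPM in WT, 16.4, 19.6 and 16.5 in Δ306 and 15.7, 20.7 and 27.6 in Δ93. It did not overlap WT in either group, and its log2 fold change was 2.54 (SE 0.54, adjusted p = 0.00428) in Δ93 and 2.26 (SE 0.57, adjusted p = 0.0234) in Δ306. Δ104 ranged from 18.2, 15.6 and 8.20 in replicates 1, 2 and 3 to 1.80 in replicate 4. Δ225, at 0.976, 3.46 and 5.08, overlapped WT.
Znrf3 (ENSMUSG00000041961, chr11:5276324-5444847, minus strand) lay at 30.0, 29.1 and 28.1 CPM in WT, at 26.5, 30.6 and 28.6 in Δ306 and at 29.6, 36.0 and 41.6 in Δ93. Its groups overlapped, and the log2 fold change against WT was 0.30 in Δ93 (95% interval 0.00 to 0.60, adjusted p = 0.175) and −0.02 in Δ306 (95% interval −0.37 to 0.32, adjusted p = 0.953). In both groups the upper bound of Znrf3 lay below the fitted rise of Rnf43. The difference between these 2 genes was not tested.

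Axin2 (ENSMUSG00000000142, chr11:108920349-108950783, plus strand) encodes a scaffold of the destruction complex and is a direct target of the pathway. It was at 36.8, 32.4 and 35.7 CPM in WT and at 79.3, 93.5 and 114 in Δ93 and 58.2, 68.8 and 86.4 in Δ306. Neither mutant group overlapped WT. Δ104 gave 128, 84.6, 56.1 and 31.3 CPM, and Δ225 29.0, 38.4 and 40.9. The log2 fold change was 1.45 (SE 0.28, adjusted p = 0.00262) in Δ93, 1.03 (SE 0.31, adjusted p = 0.0503) in Δ306, 1.101 (SE 0.29, adjusted p = 0.111) in Δ104 and 0.09 (SE 0.27, adjusted p = 0.886) in Δ225. The Δ306 value thus missed the threshold narrowly in the main test.
Nkd1 (ENSMUSG00000031661, chr8:88521354-88594884, plus strand) encodes an antagonist of Dishevelled. Its WT libraries were 70.2, 33.3 and 34.2 CPM, with replicate 1 apart from the others, beside 78.4, 70.1 and 94.0 in Δ306 and 67.7, 107 and 125 in Δ93. WT replicate 1 overlapped both mutant groups, and the other WT libraries neither. Δ104 gave 82.1, 67.7, 53.7 and 31.7, and Δ225 21.4, 35.1 and 42.6. The log2 fold change was 1.12 in Δ93 (SE 0.29, adjusted p = 0.0144) and 0.82 in Δ306 (SE 0.32, adjusted p = 0.135).

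Sp5 (ENSMUSG00000075304, chr2:70474923-70477729, plus strand), a zinc-finger transcription factor whose gene is a known direct WNT target, moved most. It measured 3.79, 3.50 and 5.80 CPM in WT, 35.2, 44.0 and 44.8 in Δ306 and 30.4, 48.7 and 62.0 in Δ93. The lowest Δ93 library was thus above the highest WT library, and so was every Δ306 library. Sp5 was also the one gene of the 10 with all 4 Δ104 libraries above WT, at 30.9, 20.2, 7.56 and 6.42 CPM. That difference was not called, and the share of all genes with the same separation was not counted. Δ225 stood at 1.66, 5.20 and 7.90, around WT. The log2 fold change was 3.46 (SE 0.54, adjusted p = 0.000752) in Δ93, 3.25 (SE 0.57, adjusted p = 0.0043) in Δ306, 1.90 (SE 0.52, adjusted p = 0.118) in Δ104 and 0.23 (SE 0.46, adjusted p = 0.818) in Δ225.
Lef1 (ENSMUSG00000027985, chr3:131110471-131224356, plus strand) encodes a nuclear partner of β-catenin. WT held 14.4, 16.5 and 19.7 CPM, Δ306 17.9, 26.0 and 29.7, and Δ93 32.2, 37.2 and 41.3. Δ93 lay above all libraries of WT and of Δ306, and Δ306 overlapped WT. The difference from WT was 1.11 on the log2 scale in Δ93 (SE 0.29, adjusted p = 0.0137) and 0.54 in Δ306 (SE 0.32, adjusted p = 0.337), while that of Δ93 from Δ306 was 0.57 (SE 0.28, adjusted p = 0.567). Δ104 gave 55.9, 32.3, 25.0 and 16.7 CPM and Δ225 16.0, 18.5 and 31.0.
Ctnnb1 (ENSMUSG00000006932, chr9:120929216-120960507, plus strand) encodes the transducer itself, which is known to be controlled mainly as a protein. In WT it stood at 879.6, 926 and 901 CPM, with 767, 617 and 631 in Δ306, 590.0, 746 and 832 in Δ93, 622, 700.0, 760.2 and 731 in Δ104 and 339, 718 and 863 in Δ225. Every library of the 4 deletions was below every WT library, yet no comparison was called. The share of all genes with such a separation from WT was not counted, so no fall of Ctnnb1 is read from it. The log2 fold changes were −0.43 in Δ306, −0.41 in Δ225, −0.36 in Δ104 and −0.32 in Δ93, with adjusted p from 0.294 to 0.407. The lowest library, Δ225 replicate 1, was also the shallowest. In the Meis1 table the same WT libraries had 1124 to 1136 CPM, so levels are compared only within a table.

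**Figure D2:**
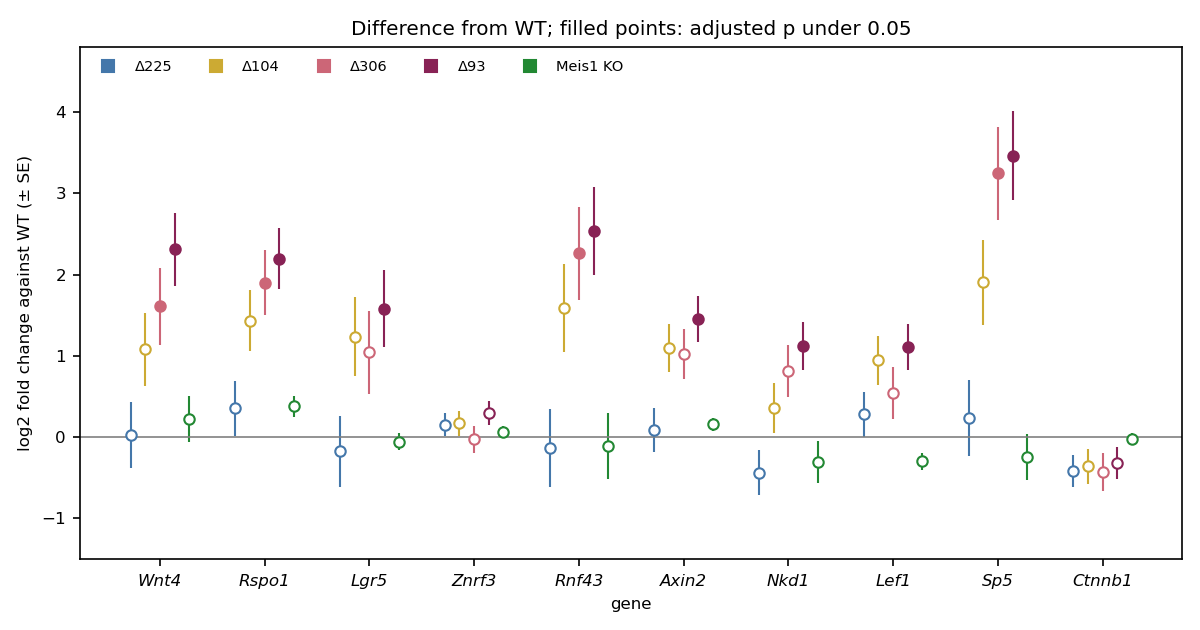
Log2 fold change of each gene against WT (points) with its standard error (bars) in Δ225, Δ104, Δ306, Δ93 and Meis1 KO; filled points passed an adjusted p of 0.05. Sp5 had the largest fitted rise in Δ93 (3.46) and Δ306 (3.25), Δ225 and Meis1 KO lay near 0, and Ctnnb1 was slightly below 0 in all 4 deletions.

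The calls in Δ93 held for Wnt4, Rspo1, Rnf43, Axin2 and Sp5 without the 4 libraries low in Y-linked genes, which left 5 of 8 called, beside 6.62% of all genes; Lgr5 (adjusted p = 0.136), Nkd1 (0.0999) and Lef1 (0.0551) were lost. Without WT replicate 2 the count was also 5, beside 6.67% of all genes. In Δ306 the count depended on single libraries: 2 without Δ306 replicate 2 (1.52% of all genes), and 1 (Sp5) without Δ306 replicate 3 (0.856%), WT replicate 2 (2.11%) or WT replicate 3 (2.65%). Sp5 alone also passed without the 4 libraries low in Y-linked genes, 1 of which is Δ306 replicate 3, where 0.441% of all genes did. The separate table of WT and Δ306, with its own fit, called 6 of the 10, adding Lgr5 and Axin2, at a background of 18.8% of genes. In the authors' deposited table, 8 of the 10 had an adjusted p under 0.05 between WT and Δ93, beside 17.9% of all genes with one, and 5 between WT and Δ306, beside 10.4%.

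In Δ104 none of the 10 was called against WT by edgeR, where 0.061% of all genes were, although 9 of 10 had a positive log2 fold change and their median was 1.09 beside 0.06 over all genes. Without adjustment 7 had a p under 0.05, as did 15.7% of all genes, and DESeq2 called 3, Rspo1, Axin2 and Sp5, beside 2.59% of all genes. The authors' deposited table, also made with DESeq2, has the same number and is not a separate check. The 4 libraries differed widely. For 9 of the 10 genes, all but Ctnnb1, the order from high to low was replicate 1, 2, 3 and 4, which 7.93% of all genes tested had, and the granulosa marker Foxl2 had the same order at 77.0, 40.5, 13.0 and 1.22 CPM. Fst, another granulosa marker, ran from 175 through 64.8 and 11.5 to 1.12 CPM, and the Sertoli marker Amh from 0.361 through 155 and 489 to 1166. Sox9, another Sertoli marker, did not follow that order, at 11.6, 57.8, 116 and 88.9 CPM in replicates 1 to 4 against 98.7 to 104.3 in WT. Replicate 1 was thus lowest for both Amh and Sox9. For Wnt4 and Rspo1 replicate 1 lay inside the range of Δ93, and for Axin2 above it. Without replicate 4 the count was 5 of 10 (Rspo1, Rnf43, Axin2, Lef1 and Sp5), while that over all genes went from 14 to 528, or 2.31%. The part of cell composition in this spread was not tested.

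**Figure D3:**
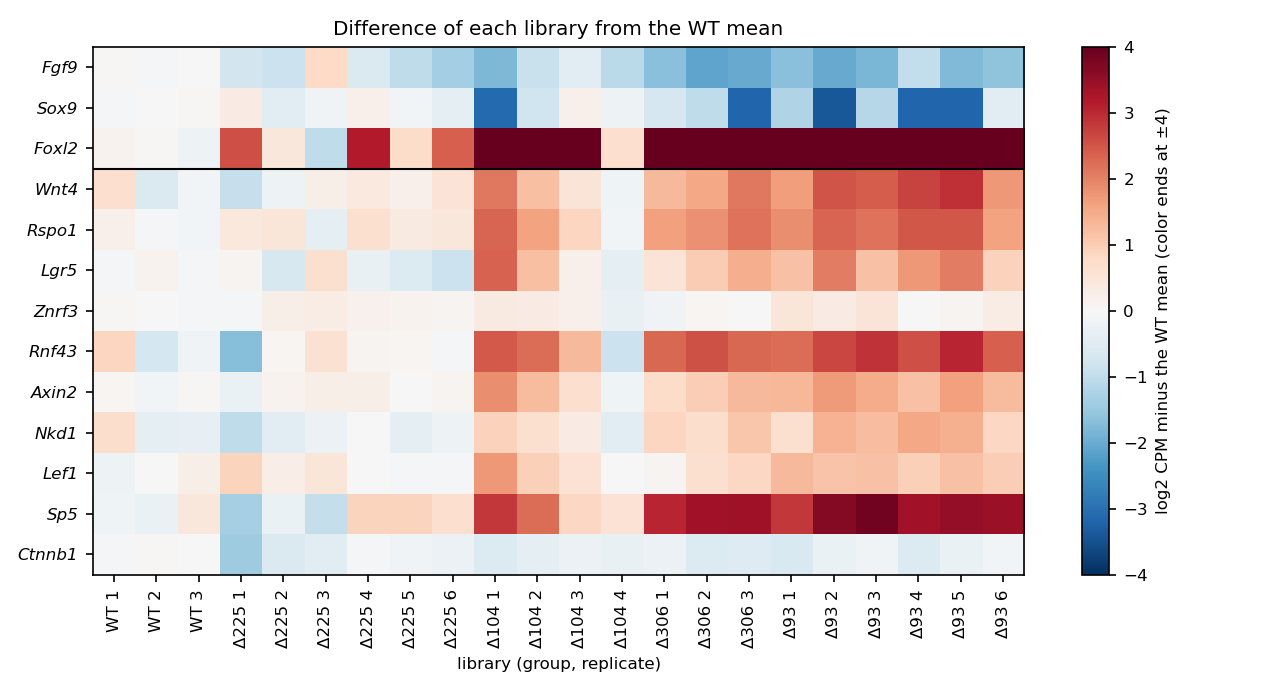
Log2 CPM of each library minus the WT mean (color, cut at ±4) for Fgf9, Sox9, Foxl2 and the 10 genes, with the 22 libraries of WT and the Fgf9 deletions in columns. The 9 genes other than Ctnnb1 order the 4 Δ104 libraries alike, and Znrf3 shows little color throughout. In Δ225 the 10 genes run from −1.69 (Rnf43, replicate 1) to 0.89 (Lef1, replicate 1). There Foxl2 runs from −1.01 to 3.18 and Fgf9 from −1.36 to 0.79.

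Δ225 did not differ detectably from WT in these genes. None of the 10 was called by edgeR or by DESeq2, where edgeR called 0.209% of all genes and DESeq2 3.55%, and 1 (Ctnnb1) had an unadjusted p under 0.05, beside 16.1% of all genes. The median log2 fold change was 0.06, beside 0.04. The 95% intervals allowed a rise of up to 0.64 for Axin2, 0.86 for Wnt4, 1.06 for Rspo1 and 1.199 for Sp5, each below the fitted rise of that gene in Δ93. Tested directly, Δ225 was lower than Δ93 in the same 8 genes that were called in Δ93, against a background of 20.8% called and 10.8% lower. The log2 differences ran from −0.83 for Lef1 (SE 0.23, adjusted p = 0.0128) to −3.23 for Sp5 (SE 0.40, adjusted p = 3.72e-05). The libraries of the 2 groups did not overlap in any of these 8 genes, all lower in Δ225, as in 5.58% of all genes tested, and the count was 8 whichever single library of either group was left out. Against Δ306, Δ225 was lower in 6 genes (Wnt4, Rspo1, Rnf43, Axin2, Nkd1 and Sp5), where 13.2% of genes were called and 6.74% lower. Without Δ306 replicate 3, or without the libraries low in Y-linked genes, that count was 2, Rnf43 and Sp5, beside 3.71% and 2.23% of all genes called.

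The other comparisons between deletions gave no called member in the main test. For Δ225 against Δ104 (0.645% of genes called) 8 members had an unadjusted p under 0.05, beside 10.6% of all genes, and DESeq2 called 4, beside 1.77%. There edgeR called 8 without Δ104 replicate 4, beside 2.44% of all genes, and 2 without Δ104 replicate 3, beside 1.04%. For Δ93 against Δ104 (0.0523% called) 5 had an unadjusted p under 0.05, beside 14.5% of all genes, and DESeq2 called 2, beside 2.83%. There edgeR called 3 without Δ104 replicate 1, beside 3.46% of all genes, and 1 without Δ93 replicate 1, beside 3.11%. For Δ93 against Δ306 (0.0785% called) and Δ104 against Δ306 (0.0654% called) 1 member each had an unadjusted p under 0.05, beside 9% and 11.1% of all genes, and DESeq2 called none, beside 0.856% and 1.87%. All 10 members had a positive fitted difference in Δ93 against Δ306.

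Meis1 KO gonads were compared with WT within their own table. None of the 10 was called by edgeR or DESeq2, where edgeR called 1.8% of 16791 genes and DESeq2 8.32%. An unadjusted p under 0.05 was found for 2 of the 10 (Rspo1 and Lef1) and for 19.3% of all genes, so this count is at the background. Wnt4 measured 73.1, 46.6, 65.6 and 52.0 CPM in the knockouts and 76.2, 32.1 and 43.7 in WT, overlapping throughout. Rspo1 was 24.2, 24.4, 19.1 and 25.3 CPM against 20.7, 16.8 and 16.2, which is 0.38 higher on the log2 scale (SE 0.13, adjusted p = 0.171). Sp5 was at 2.36, 4.17, 4.05 and 5.22 CPM against 4.08, 3.80 and 6.13, and Axin2 at 44.7, 41.3, 45.4 and 47.5 against 42.3, 37.1 and 40.6. Lef1 lay just below WT in all 4 libraries, at 15.3 to 15.8 CPM against 16.5 to 21.8. The median log2 fold change was −0.04, beside 0.00. Foxl2 rose in the same libraries to 5.46, 6.86, 6.02 and 6.29 CPM from 0.946, 0.845 and 0.672 (log2 fold change 2.90, SE 0.19, adjusted p = 0.000753). It was the only 1 called of 5 pre-granulosa markers, whose median log2 fold change was 0.40. These 5 markers summed to 33.0 to 41.0 CPM in the knockouts against 24.0 to 31.6 in WT. Without WT replicate 1, Rspo1 (0.50, adjusted p = 0.0304) and Lef1 (−0.39, adjusted p = 0.0249) were called, while the count over all genes went from 303 to 2204, or 12.9%.

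Over the 22 libraries of WT and the Fgf9 deletions, 8 of the 10 genes fell as Fgf9 rose (edgeR slope on log2 Fgf9 CPM, adjusted over 22940 genes), all but Znrf3 and Ctnnb1. Over all genes 6.99% had a called negative slope. The slope of Sp5 was −1.76 per doubling of Fgf9 (SE 0.25, adjusted p = 0.000321), that of Rspo1 −1.01 (SE 0.16, adjusted p = 0.000567), that of Wnt4 −0.95 (SE 0.21, adjusted p = 0.00469) and that of Axin2 −0.61 (SE 0.13, adjusted p = 0.00284). Pearson's r of log2 values over the 22 libraries was −0.83 for Sp5 (Spearman's rho −0.81) and −0.81 for Rspo1 (rho −0.74), each r with a permutation p of 1e-05, the smallest that 100000 permutations can give, and an adjusted p of 0.00191 over all genes. The adjusted permutation p of rho was 0.00158 for Sp5 and 0.0034 for Rspo1. Of the 8 genes, Lgr5 (0.0718) and Lef1 (0.0578) missed the threshold by the adjusted permutation p of r. By that of rho both passed (0.04 and 0.0355). Without the 2 libraries farthest from the median of Fgf9, Δ225 replicate 3 and WT replicate 1, r was −0.79 for Sp5 and −0.77 for Rspo1. There Lef1 missed the threshold by r (0.0817) and by rho (0.0923), and Lgr5 passed by both (0.0469 and 0.0487). These pooled values contain the differences between genotypes. The permutations moved Fgf9 values freely over the 22 libraries, across genotypes. Their p, like that of the slope, thus takes no account of libraries that share a genotype.

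**Figure D4:**
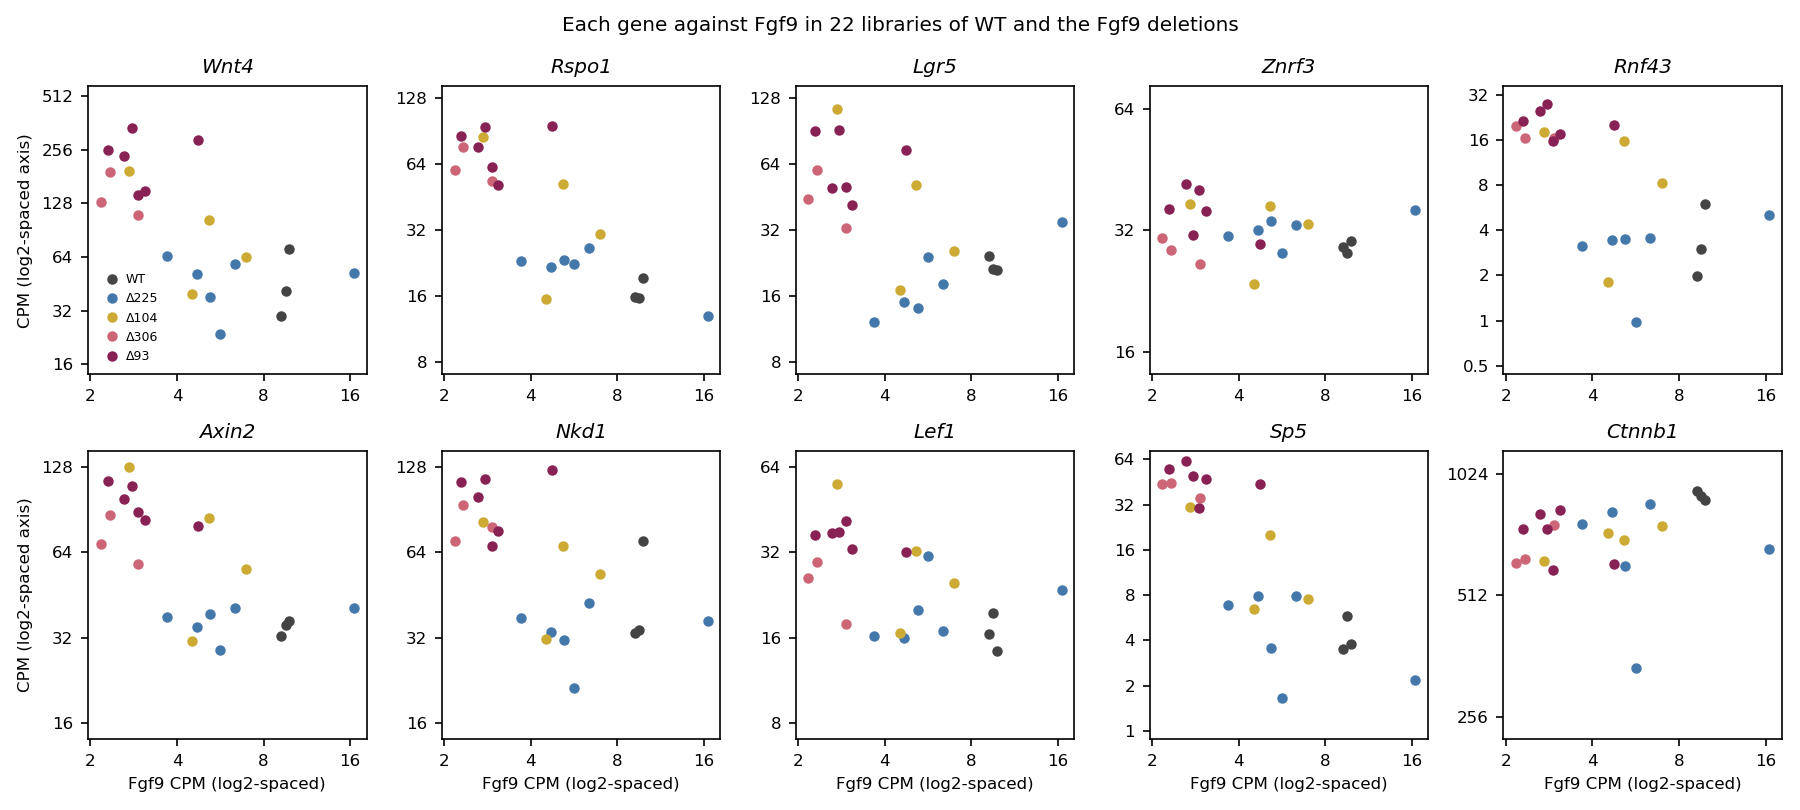
CPM of each of the 10 genes against CPM of Fgf9 (both axes spaced by log2), 1 point for each of the 22 libraries, colored by genotype. Libraries of Δ93 and Δ306 sit at low Fgf9 and high Sp5, Rspo1 and Wnt4, the WT libraries at the opposite corner, and Δ225 mostly has less Fgf9 than WT at WT-like levels of the other genes.

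Within genotypes the relation was not detectable. With the genotype in the fit none of the 10 slopes was called, where 0.641% of genes were, and 2 had an unadjusted p under 0.05, beside 8.13% of all genes: Sp5 (−0.82, SE 0.27, adjusted p = 0.295) and Rspo1 (−0.47, SE 0.21, adjusted p = 0.55). Wnt4 had a slope of −0.24 (SE 0.25), and Lgr5 and Rnf43 had slopes of 0.03 and 0.04. In Δ93 alone r ran from −0.81 for Axin2 to 0.19 for Nkd1, and in Δ225 alone from −0.85 for Rspo1 to 0.91 for Lgr5, over 6 libraries each, with no adjusted exact permutation p under 0.744. The extreme values in Δ225 involve replicate 3, which had the most Fgf9 (16.5 CPM), the least Rspo1 (13.0) and the most Lgr5 (35.0) of its group. Δ225 carried less Fgf9 than WT in 5 of 6 libraries, with no called member. Without the WT libraries 4 members had a called negative slope (3.9% of all genes), without the libraries low in Y-linked genes 5 did (5.06%), and without Δ93 replicate 2 also 5 (5.51%).

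Of 93 other genes of the pathway, grouped by role, 89 were tested in the deletions. In Δ93 9 rose and 14 fell against WT (25.8%, beside 14.1% of all genes), with a median of −0.17. The secreted and cell-surface inhibitors, which keep WNT or R-spondin from their receptors, gave 8 lower and 0 higher of 16, with a median of −0.80 beside 0.06 over all genes. Their median was also below that of all genes in Δ225 (−0.49 beside 0.04), Δ104 (−0.43 beside 0.06) and Δ306 (−0.28 beside 0.08). The same held in Meis1 KO (−0.45 beside 0.00). Called lower were 0 in Δ225, 0 in Δ104, 2 in Δ306 and 1 in Meis1 KO. Sostdc1, which encodes an antagonist of WNT and BMP, went from 28.8, 21.6 and 26.3 CPM in WT to 0.274, 1.47 and 5.08 (lowest, median, highest) in Δ93, a difference of −3.81 on the log2 scale (SE 0.83, adjusted p = 0.00509). Dkk1, which blocks the LRP co-receptors, went from 16.5, 14.1 and 18.0 CPM to 0.501, 1.25 and 5.26 (−3.11, SE 0.67, adjusted p = 0.00487). No Δ93 library reached the lowest WT library for either gene. Dkk2 (−3.02, SE 0.63) and the Frizzled decoy Sfrp4 (−2.47, SE 0.65) were also lower. Without WT replicate 1 the inhibitors gave 4 lower, with Sfrp4 at an adjusted p of 0.0724, and the wider list gave 10 called, beside 6.25% of all genes. The list gave 15 without WT replicate 2 and 13 without WT replicate 3 (7.61% of all genes), and 15 without the 4 libraries low in Y-linked genes.

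Among the ligands and their acyltransferase, 3 of 16 tested rose and 2 fell in Δ93. Wnt9a (2.46, SE 0.56, adjusted p = 0.00635), Wnt2b (1.93, SE 0.47) and Porcn (1.59, SE 0.46), which attaches the lipid that WNT proteins need for secretion, rose. Wnt9b fell (−4.46, SE 1.09), but this rested on WT replicate 1, the library high in the duct marker Pax2, at 7.28 CPM against 0.253 and 0.923 in the other WT libraries. Without it the value was −2.20 with an adjusted p of 0.243. The receptors Lgr6 (1.50, SE 0.45) and Lgr4 (0.61, SE 0.16) rose, and of 16 Frizzled and co-receptor genes Fzd9 (−2.34, SE 0.77), Fzd1 (−1.13, SE 0.35) and Lrp5 (−0.83, SE 0.21) fell. Among genes that act inside the cell, Btrc, a ubiquitin ligase subunit for β-catenin, rose (0.41, SE 0.13), with no other call among 16 genes of the destruction complex and Dishevelled, and the repressor Tcf7l1 fell (−0.61, SE 0.16), the single call among 13 TCF factors and co-factors, beside 14.1% called over all genes. Of 7 further target genes Tnfrsf19 rose from 28.5, 21.3 and 24.1 CPM in WT to 164, 251 and 370.2 in Δ93 (3.39, SE 0.61, adjusted p = 0.00163). Cdx2 had 0, 5 and 0 counts in WT and 2.31 to 13.0 CPM in Δ93, and Cdx1 rose by 2.31 (SE 0.68). Without WT replicate 1, Porcn, Lgr6, Lgr4, Fzd9, Fzd1, Lrp5, Btrc, Tcf7l1 and Cdx1 each missed the threshold, with adjusted p from 0.0587 to 0.149 and the same direction. Fzd1 missed it whichever single library of Δ93 or WT was left out (adjusted p from 0.0504 to 0.149). Over the same fits the adjusted p of Wnt2b reached 0.061.

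**Figure D5:**
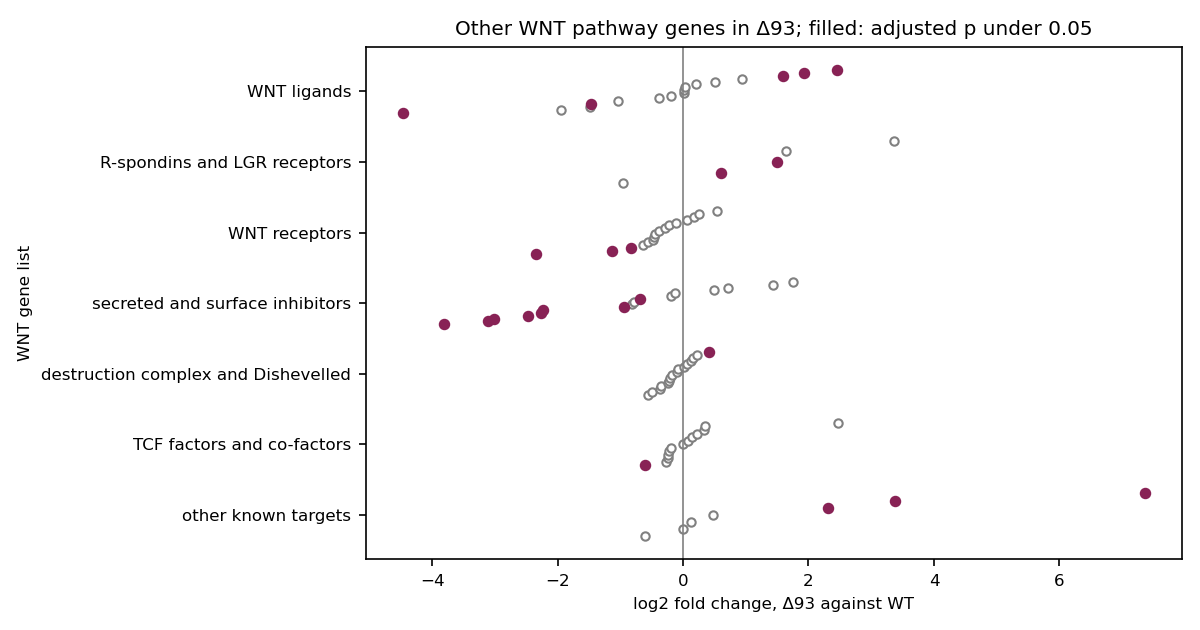
Log2 fold change in Δ93 against WT (horizontal axis) of the 89 other WNT pathway genes tested, 1 point per gene, in 7 lists by role (vertical axis); filled points passed an adjusted p of 0.05. The called secreted and surface inhibitors all lie left of 0, down to −3.81 for Sostdc1, and Cdx2 is the point farthest right.

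In Δ306 4 of these 89 genes rose and 6 fell (11.2%, beside 6.43% of all genes). These 10 calls depended on single libraries: 2 without Δ306 replicate 3, 3 without Δ306 replicate 2, 4 without WT replicate 3, 5 without WT replicate 1 (2.25% of all genes) or WT replicate 2, and 1 without the libraries low in Y-linked genes. With only WT and Δ306 in the fit 24 were called, beside 17.5% of all genes, and 20 in the separate table. None was called in Δ225 or Δ104 against WT by edgeR. There 19 and 18 had an unadjusted p under 0.05, where the shares over all genes were 16.1% and 15.7%, and DESeq2 called 2 and 3 of 88, where it called 3.55% and 2.59% of all genes. In Meis1 KO 2 of 82 fell, Sostdc1 (−1.41, SE 0.22, adjusted p = 0.0352) and Tle1 (−0.35, SE 0.06, adjusted p = 0.0443), and DESeq2 called 12 of 83, beside 8.32% of all genes. Sostdc1 measured 14.3, 11.0, 8.25 and 7.34 CPM in these knockouts against 30.8, 23.1 and 27.7 in WT. Tle1, a co-repressor of TCF factors, lies outside the rule for naming genes and was picked after its value had been seen.

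Markers of gonadal cell types moved beside the 10 genes. The 5 pre-granulosa markers summed to 21.9 to 28.1 CPM in WT, 242 to 502 in Δ306, 255 to 707 in Δ93, 15.0 to 516 in Δ104 and 18.0 to 36.5 in Δ225, and 5 of 5 were called higher in Δ93 and 4 of 5 in Δ306. The 9 Sertoli markers summed to 2006 to 2483 CPM in WT, 59.1 to 903 in Δ93 (3 of 9 called lower) and 93.3 to 547 in Δ306. None of the 9 was called by edgeR in Δ306, where 3 had an unadjusted p under 0.05 and 1 an adjusted p under 0.05 in the authors' deposited table. The 4 libraries low in Y-linked genes were unlike each other in this sum. It was 2227 CPM in Δ225 replicate 4, 93.3 in Δ306 replicate 3, and 73.6 and 60.1 in Δ93 replicates 4 and 5. The 5 fetal Leydig markers summed to 902 to 1554 CPM in WT, 50.1 to 314 in Δ93 (4 of 5 lower) and 39.8 to 91.3 in Δ306 (3 of 5 lower). Of 4 endothelial markers 2 were lower in Δ93 (248 to 369 CPM against 381 to 514) and 1 in Δ306, and of 4 surface epithelial markers 2 were higher (121 to 232 against 93.5 to 100.2). In Δ93 none of 5 germ-cell and none of 4 blood markers was called by edgeR (unadjusted p under 0.05 for 1 and 0, and an adjusted p under 0.05 in the authors' deposited table for 1 and 0), and of 6 mesonephric duct markers Pax8 was higher and Wnt9b, which is also counted among the ligands, lower. The part of cell composition in the change of the 10 genes was not tested.

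The genes whose log2 levels followed 3 of the 10 most closely over the 22 libraries, among genes with a mean of at least 1 CPM, were found by Pearson's r. This is a description over libraries that share genotypes. For Rspo1 they were Adamts19 (0.99), Foxl2 (0.98), Lzts1 (0.97), Cdkn1b (0.97) and Akr1c14 (0.97). For Wnt4 they were Rasl10b (0.98), Gm47163 (0.97), Pla2r1 (0.97), Reep1 (0.97) and Nkd1 (0.97), itself one of the 10. For Axin2 they were Lypd6, Stum, Colec12, Drp2 and Tnfrsf19, each at 0.97.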

How the data were processed

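Poly(A) RNA-seq libraries of gonads labelled XY (26 in all) were compared in 6 groups taken from the sample labels. Per the submitters' processing notes, reads were aligned with STAR 2.7.10a to mm10 and assigned to genes with featureCounts of the Subread package, and DESeq2 was used. The values analysed are the raw counts per gene that the authors deposited, in a table of WT and the 4 Fgf9 deletions, a table of WT and Meis1 KO, and a separate table of WT and Δ306. The library kit keeps strand, per the labels, and the strand setting of the counting is not given in the sources used here. The authors' deposited table also gives log2 fold changes and p-values per comparison, of which only counts of genes under the threshold are quoted.

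Counts were tested with edgeR 4.0.16 (limma 3.58.1, R 4.3.3): genes filtered with filterByExpr, trimmed-mean scaling, the quasi-likelihood test, and Benjamini-Hochberg adjustment over all genes tested, with a threshold of 0.05. All groups of a table entered 1 fit, with no covariate and 17 residual degrees of freedom in the table of all deletions (5 in the Meis1 table). Log2 CPM used a prior count of 2. Standard errors and 95% intervals were derived from the fitted log2 fold change and its F statistic. The relation to Fgf9 was a slope on log2 Fgf9 CPM over 22 libraries. Alternatives were DESeq2 1.42.0, other scaling, no filter, only the groups compared, the separate table, the replicate number as a block and each library left out. Leaving out the libraries with under 1 CPM of Y-linked genes was chosen after seeing the data. Scripts were tested on simulated data. Total counts limit precision most for Rnf43 and Sp5, the members with the lowest CPM in WT.

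The 10 members and all gene lists were chosen with earlier results of these data known, so nothing here is independent of them. Named in the text are the 10 members in every comparison, up to 4 called genes per role of the wider WNT lists with the largest change in Δ93, the 5 genes most like Wnt4, Rspo1 and Axin2, the targeted genes Fgf9 and Meis1, and the markers Foxl2, Fst, Sox9, Amh, Pax2 and Pax8. Promoter windows came from RefSeq on GRCm38.p6 and were matched by symbol for 8 of 10 members.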

Additional observations from a re-analysis of the deposited data

Results flagged for a closer look

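Of 40 combinations of gene and group with 4 to 6 libraries, 1 had a library far from the others: Rspo1 in Δ225 replicate 3, at 13.0 CPM, with the next lowest library at 21.8 and the highest at 26.5. The gap was 0.65 of the range of the group, past Dixon's limit for 6 samples. Chance alone flags about 1 in 20 such groups. The same library had the highest Fgf9 of its group, at 16.5 CPM.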

How the results depend on the processing

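Counts are of the 10 genes called, with the share of all genes called in either direction under the same setting in brackets. Against WT, the 4 called in Δ306 (6.43%) became 1 without the libraries low in Y-linked genes (0.441%). With single libraries left out they became 1 to 3 (0.856% to 5.48%). The 8 in Δ93 (14.1%) became 5 (6.62%) and 5 to 8 (6.25% to 15.7%) in these 2 settings. The 0 in Δ104 (0.061%) became 3 with DESeq2 (2.59%) and 0 to 5 with single libraries left out (0.0042% to 2.31%). The 0 in Meis1 KO (1.8%) became 0 to 2 with single libraries left out (0.0899% to 12.9%). For Δ225 against Δ306 the 6 (13.2%) became 2 without the libraries low in Y-linked genes (2.23%). With single libraries left out they became 2 to 7 (3.71% to 14.8%). For Δ225 against Δ104 the 0 (0.645%) became 4 with DESeq2 (1.77%) and 1 with no filter (0.369%). With single libraries left out it became 0 to 8 (0.0394% to 2.44%). For Δ93 against Δ104 the 0 (0.0523%) became 2 with DESeq2 (2.83%) and 0 to 3 with single libraries left out (0.0131% to 3.46%). The 8 slopes on Fgf9 (14.8%) became 0 with genotype in the fit (0.641%) and 4 without WT (9.4%). They became 5 without the libraries low in Y-linked genes (11.3%) and 5 to 8 with single libraries left out (10.7% to 19.3%). Fits with fewer libraries have fewer degrees of freedom, and other causes were not tested. Δ225 against WT stayed at 0 whichever single library was left out (0.021% to 0.535%), and Δ225 against Δ93 at 8 (15% to 28.3%). The latter count was 7 without the libraries low in Y-linked genes (9.06%).

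Directions turned only for differences that were not called, apart from the slopes of Lgr5 (0.035) and Rnf43 (0.039) with genotype in the fit, where Ctnnb1 was −0.017; without WT the Ctnnb1 slope was −0.034. Znrf3 in Δ306 was 0.062 with no composition factor and 0.053 in the separate table, and Wnt4 in Δ225 −0.065 without the libraries low in Y-linked genes. With single libraries left out, values against WT in Δ225 ran from −0.24 to 0.44 for Wnt4, −0.46 to 0.42 for Rnf43 and −0.64 to 0.0071 for Nkd1. In Meis1 KO they ran from −0.026 to 0.65 for Wnt4, −0.12 to 0.018 for Lgr5, −0.44 to 0.48 for Rnf43, −0.50 to 0.15 for Nkd1 and −0.043 to 0.014 for Ctnnb1.

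The labels do not say whether the replicate numbers pair the samples, and this was not settled. Over 38 same-numbered pairs the correlation of deviations ran from −0.31 to 0.48, with 11 over 0.1. In no comparison were all pairs over 0.1, but 3 to 6 pairs per comparison cannot exclude a pairing. The replicate block took the share of all genes called in Δ225 against WT from 0.209% to 7.14%. In Δ104 against WT it went from 0.061% to 2.05%, and in Δ225 against Δ104 from 0.645% to 0.00872%. None of the 10 genes was called in any of these comparisons. With the replicate block, 3 of the 10 genes were called in Δ306, beside 5.63% of all genes, and 5 in Δ225 against Δ306, beside 14.8%. For the slope on Fgf9 the block left 8 called, beside 15.7% of all genes. In Δ225 against WT the replicate block turned Wnt4 to −0.0065, Lgr5 to 0.073, Rnf43 to 0.079 and Sp5 to −0.037, and in Meis1 KO Rnf43 to 0.20.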
